A study of Mus musculus with 6 samples.

Results

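Lymphatic endothelial cells line the vessels that drain fluid and carry immune cells away from a tissue. In mouse Achilles tendon and its injury site, 499 of 63329 barcodes that passed the cell filter met the rule used here for such cells. The single cell RNA-seq data came from 6 libraries holding 84194 barcodes in all. As a group, 45 of the 499 did not bear out the lymphatic label, as described below. A barcode was counted as a member when it held at least 1000 UMIs (unique molecular identifiers, which count captured RNA molecules), at least 200 genes, at most 5% mitochondrial UMIs, at least 1 UMI of the endothelial junction gene Cdh5 or the endothelial adhesion gene Pecam1, no UMI of the leukocyte gene Ptprc or the mesenchymal gene Pdgfra, and at least 2 UMIs of Prox1 and Mmrn1 in sum. The members were therefore chosen by measured values of those 6 genes, which are described here but not tested. They were compared with 5552 cells of the same libraries that held Cdh5 and Pecam1 UMIs, passed the same filters and held no Prox1 or Mmrn1 UMI, called comparison endothelial cells below.

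The mice carried Gli1-CreERT2 and the Ai9 reporter, in which tamoxifen switches on tdTomato for good in cells that transcribe Gli1, a target and effector of Hedgehog signalling. Cells were sorted by reporter fluorescence into Gli1+ and Gli1- fractions from uninjured Achilles tendon and at 7 and 21 days after tenotomy (dpi), from 24 mice in all, 8 per time point, and which mouse a cell came from is not recorded. Each of the 6 combinations of sort and time gave 1 library, so nothing between time points or sorts has a replicate, while lymphatic and comparison cells could be compared within each library, giving 6 pairs. A Gli1+ label is meant to mark cells that had transcribed Gli1 when tamoxifen was given, and their progeny. Gli1 itself was too low in members to tell the sorts apart. It was at 0 UMIs in the members of all 3 Gli1+ libraries, with exact upper bounds of 16.4, 45.4 and 13.4 UMIs per 1000000. Members of the Gli1- libraries held 2, 0 and 2 Gli1 UMIs.

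Lymphatic identity is set by the homeodomain factor Prox1, induced in veins by Sox18 and Nr2f2 and needed throughout life to keep lymphatic and not blood vessel genes on. Growth and survival depend on the receptor VEGFR3 (Flt4) and its ligand VEGFC, and blind-ended capillaries draw dendritic cells in through the chemokine CCL21 and carry the hyaluronan receptor LYVE1, while collecting vessels have valves and less LYVE1. Tendon is poor in vessels when uninjured and becomes more vascular while it heals.

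The genes that carry these results lie at Prox1 chr1:190118035-190170714 (minus strand), Mmrn1 chr6:60924976-60989378 (plus strand), Ccl21a chr4:42772860-42773993 (minus strand), Reln chr5:21884454-22344702 (minus strand), Lyve1 chr7:110850607-110863239 (minus strand) and Flt4 chr11:49609263-49652739 (plus strand) in GRCm38, all protein coding, by the GENCODE M21 annotation. Ccl21a and Reln had the highest log2 fold changes of the genes named here, and their promoter windows of 300 bases, taken 5′ to 3′ from RefSeq on GRCm38.p6, are shown with matches to the searched motifs in capitals.
Ccl21a, chr4:42773942-42774241, minus strand: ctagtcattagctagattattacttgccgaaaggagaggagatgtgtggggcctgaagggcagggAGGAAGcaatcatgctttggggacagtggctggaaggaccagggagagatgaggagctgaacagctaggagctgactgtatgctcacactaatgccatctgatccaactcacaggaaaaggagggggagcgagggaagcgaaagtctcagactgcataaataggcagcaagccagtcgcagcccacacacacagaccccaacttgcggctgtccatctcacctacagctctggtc
Reln, chr5:22344656-22344955, minus strand: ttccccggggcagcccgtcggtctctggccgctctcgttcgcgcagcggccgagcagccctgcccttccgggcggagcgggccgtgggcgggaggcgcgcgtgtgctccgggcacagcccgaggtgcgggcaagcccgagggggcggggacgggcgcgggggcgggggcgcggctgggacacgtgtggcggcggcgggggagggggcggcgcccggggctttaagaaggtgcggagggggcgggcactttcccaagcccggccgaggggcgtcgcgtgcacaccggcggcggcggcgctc
The letters in capitals in the Ccl21a window are AGGAAG, an ETS family motif, while the Reln window held no match. GC content was 53.7% and 80.7%, against a median of 52.7% over all promoter windows.

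Each of 4 motifs was searched on both strands: AGGAAG of ETS factors, AGATAA of GATA factors, ACAATG of SOX factors and TAAACA of FOX factors, in that order below. Among the 10 genes highest in lymphatic cells, 7 had a window in the RefSeq table, with 9 windows in all, of which 2, 0, 1 and 1 held the respective motif. The 10 lowest genes gave 7 matched genes and 8 windows, of which 4, 1, 0 and 1 held it. Over all 32851 windows of this length the shares were 35.4%, 11.2%, 12.6% and 13.4%. These are letter matches in short windows and describe no binding.

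Members, called lymphatic cells below, numbered 28, 13 and 31 in the Gli1+ sort (uninjured, 7 dpi, 21 dpi) and 131, 57 and 239 in the Gli1- sort, an order of libraries kept in every series of 6 values below. Those with an Mmrn1 UMI numbered 18, 8 and 30 (Gli1+) and 117, 55 and 226 (Gli1-). Summed over the members of a library, 81342 to 1436575 UMIs were available, and levels are given as CPM, UMIs of a gene per 1000000 UMIs of those sums. Median UMIs per member ran from 4604 to 7475, against 2989 to 7068 in comparison cells. Barcodes shared by pairs of libraries numbered 27 to 75. Libraries stood apart in sex-linked genes, although the labels give both sexes in equal number: members of Gli1- uninjured tendon and of both 7 dpi libraries held Y-linked UMIs and none of Xist, the RNA of the inactive X, whereas Xist was found in 31 of 31 and 230 of 239 members at 21 dpi. The Gli1+ uninjured members were mixed, with Xist in 22 and Y-linked UMIs in 5 of 28. Cntn5, a neural adhesion gene, divided the libraries in the same way, at 539, 295 and 263 CPM in those 3 libraries and at most 1.39 CPM in the others. Gli1- uninjured tendon and both 7 dpi libraries thus fell on the same side of this split, which does not separate the libraries of the Gli1- comparison at 7 dpi. In the Gli1+ comparison at 7 dpi and in those of both sorts at 21 dpi, Xist and Y-linked UMIs change with the time point, so that there sex or background and time cannot be told apart. Each library-paired comparison sets cells of 1 library against each other. In the mixed Gli1+ uninjured library, Xist stood at 342 CPM in members and 180 CPM in comparison cells. Y-linked UMIs there stood at 84.3 and 67.1 CPM, so the mix of sexes may differ within that pair.

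The genes that chose the members had these levels. Prox1 stood at 564, 418 and 400.3 CPM (Gli1+) and 426, 428 and 498 CPM (Gli1-), and Mmrn1, an extracellular multimerin made by lymphatic endothelium and platelets, at 1176, 553 and 1063 CPM (Gli1+) and 1561, 688 and 1310.1 CPM (Gli1-). Both are at 0 in comparison cells because the rule set them there. Prox1 and Mmrn1 were detected together in 375 members, Prox1 alone in 45 and Mmrn1 alone in 79. At the threshold, the 50 members whose sum was 2 UMIs held Ccl21a in 11, Lyve1 in 14, Reln in 12 and the blood vessel receptor Flt1 in 30. The 126 endothelial cells just outside, with a sum of 1 UMI, held these genes in 3, 12, 3 and 116 cells. They had to hold both Cdh5 and Pecam1, while members needed only 1 of these, so the 2 groups differ in this as well.

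The lymphatic label held for most members but not for those with Prox1 alone. In the 375 members with both genes, pooled over libraries, Ccl21a stood at 5997, Lyve1 at 1267, Reln at 1134 and Flt4 at 386 CPM, with Flt1 at 126 and Vwf, the von Willebrand factor of blood vessel endothelium, at 25.9 CPM. In the 45 with Prox1 alone, the 4 lymphatic genes stood at 452, 78.5, 18.8 and 34.5 CPM and were found in 4, 9, 5 and 7 cells. Flt1 was found in 32 of these 45, at 722 CPM, and Vwf at 370.3 CPM. Selp, the P-selectin of venous endothelium, stood at 1243 CPM and Ackr1, a venule chemokine receptor, at 201 CPM in the same cells. Those with Prox1 alone were 10 of 28 members in Gli1+ uninjured tendon and 5 of 13 in Gli1+ cells at 7 dpi, so some values of these 2 libraries are given below also over the members with an Mmrn1 UMI.

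Members differed among themselves in the capillary markers that the rule did not use. Ccl21a ranged from 0 to 367 UMIs per cell, with a median of 15 and quartiles of 0 and 49. Ccl21a and Lyve1 were found together in 295 members, Ccl21a alone in 55, Lyve1 alone in 51 and neither in 98. Members with both held Reln at 1389.9 CPM, Flt4 at 427 CPM and the fatty acid carrier Fabp4 at 235 CPM. Members with neither held 199, 146 and 3745 CPM of the same genes. Flt1 was at 77.0 CPM in the former and 595 CPM in the latter, Sema3d at 258 and 454 CPM, and Foxc2, a factor needed for lymphatic valves, at 26.7 and 58.9 CPM. These sums mix libraries: of the 98 members with neither marker, 12 came from Gli1+ and 49 from Gli1- uninjured tendon, and of the 295 with both, 13 and 55. They also mix kinds of member: 35 of the 98 had Prox1 alone, the members for which the lymphatic label did not hold. In the 63 with an Mmrn1 UMI, Reln stood at 308, Flt4 at 223, Fabp4 at 3226 and Flt1 at 436 CPM, and in the 35 at 8.73, 13.1, 4647 and 873 CPM. Sema3d stood at 679 CPM in the 63 and 61.1 CPM in the 35, and Foxc2 at 65.2 and 48.0 CPM. Within libraries, over both kinds, Reln and Flt4 were lower and Fabp4 and Flt1 higher in the members with neither marker in each of the 6. Some of these orders lay within counting error. Flt1 in Gli1- cells at 7 dpi was at 102 CPM (95% Poisson interval 20.9 to 297, 3 UMIs in 5 members) against 88.5 CPM. Flt4 in Gli1+ cells at 21 dpi was at 242 CPM (111 to 459.7, 9 UMIs in 3 members) against 259.6 CPM. Sema3d was higher in them in 2 of 6 libraries and Foxc2 in 4 of 6, so the pooled order of these 2 genes does not describe every library. In Gli1- uninjured tendon, which held 49 such members, Sema3d was at 651 (566 to 746) CPM in them and 387 (319 to 464) CPM in those with both markers, with 95% Poisson intervals for counting error in parentheses. Foxc2 there was at 34.1 and 16.8 CPM, on 11 and 5 UMIs. In Gli1- tendon at 21 dpi, with 26 such members, Sema3d was at 220.0 (144 to 322) CPM and 244 (214 to 278) CPM. The 4 patterns were set by values of these members, and no test was made between them.

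Neither marker was found in 42.9%, 23.1% and 9.68% of the members (Gli1+) and 37.4%, 8.77% and 10.9% (Gli1-), and both were found in 46.4%, 53.8% and 77.4% (Gli1+) and 42.0%, 71.9% and 64.9% (Gli1-). It was thus uninjured tendon of both sorts that held the largest shares without either marker. Of the members with an Mmrn1 UMI, 3 of 18, 0 of 8 and 3 of 30 (Gli1+) and 36 of 117, 3 of 55 and 18 of 226 (Gli1-) had neither.

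**Figure D1:**
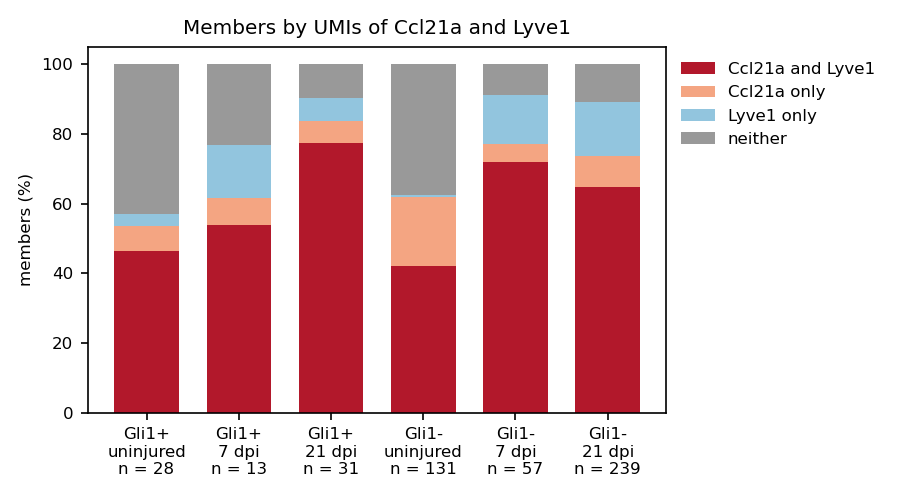
Share of the lymphatic cells of each library (y axis, percent) that held UMIs of Ccl21a and Lyve1 together, of 1 of them or of neither, as stacked bars for the 6 libraries. The segment with neither marker is largest in uninjured tendon, at 42.9% of Gli1+ and 37.4% of Gli1- members, and 9.68% and 10.9% at 21 dpi.

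Because cells differed in depth, detection was also counted after each cell was thinned to 2000 UMIs, leaving out 0 to 9 shallower members per library. The share of members with a Lyve1 UMI was then 48.1, 53.8 and 64.5 percent (Gli1+) and 40.2, 75.9 and 69.7 percent (Gli1-), against 50, 69.2 and 83.9 percent (Gli1+) and 42.7, 86.0 and 80.3 percent (Gli1-) without thinning. For Ccl21a the thinned shares were 48.1, 61.5 and 77.4 percent (Gli1+) and 56.6, 72.2 and 68.8 percent (Gli1-), and the unthinned ones 53.6, 61.5 and 83.9 percent (Gli1+) and 61.8, 77.2 and 73.6 percent (Gli1-). Mesenchymal cells of the same libraries (Pdgfra UMIs and none of Cdh5 or Pecam1), which should lack both genes, held Lyve1 in at most 0.600% and Ccl21a in at most 1.20% of thinned cells, with median depths of 5958 to 11907 UMIs. Thinned comparison endothelial cells held Lyve1 in 0 to 3.84% and Ccl21a in 0 to 2.21%, with median depths of 2989 to 7068 UMIs.

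Lymphatic cells formed a larger part of the endothelium after injury in the Gli1- sort. Their share of endothelial cells was 4.24% (3.56 to 5.01%) without injury, then 7.48% (5.71 to 9.58%) at 7 dpi and 14.8% (13.1 to 16.6%) at 21 dpi, with exact binomial 95% intervals that cover counting error only. The 3 intervals do not overlap. The endothelial cells counted were the members, the comparison cells and the cells with a Prox1 and Mmrn1 sum of 1 UMI. Members needed Cdh5 or Pecam1, and the other cells both genes. In the Gli1+ sort the shares were 7.95% (5.35 to 11.3%), 11.9% (6.51 to 19.5%) and 12.3% (8.48 to 16.9%), with intervals that overlap one another. Cells counted above with at least 2000 UMIs were also thinned to 2000, and the Prox1, Mmrn1, Cdh5 and Pecam1 limits were applied again. The Ptprc and Pdgfra limits were not, so cells that these had excluded at full depth could not enter. The Gli1- shares were then 4.08%, 7.33% and 17.3%, and the Gli1+ shares 6.33%, 11.5% and 10.3%. Of all cells passing the filter, the members amounted, for Gli1- cells, to 1.08%, 0.523% and 1.98%, and for Gli1+ cells to 0.373%, 0.129% and 0.290%, lowest at 7 dpi in both sorts. Over the members with an Mmrn1 UMI alone, the shares of endothelial cells were 3.79%, 7.22% and 14.0% (Gli1-) and 5.11%, 7.34% and 11.9% (Gli1+). Losses during dissociation and sorting cannot be told apart from changes in the tissue, and no test between conditions was made, since each had 1 library.

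**Figure D2:**
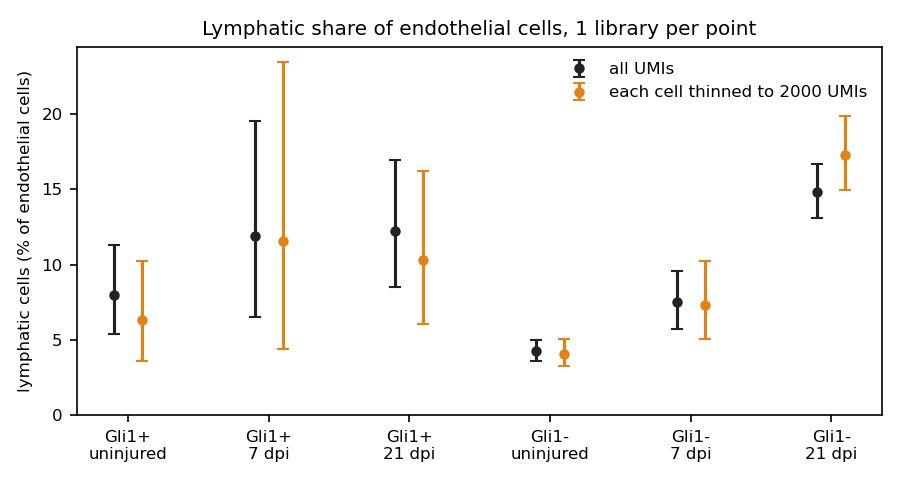
Lymphatic cells as a percentage of endothelial cells (y axis) in each of the 6 libraries, with exact binomial 95% intervals. Points show cells as called on all UMIs, and the same cells called again after thinning to 2000 UMIs. The Gli1- points climb from 4.24% in uninjured tendon to 14.8% at 21 dpi, while the intervals of the Gli1+ libraries overlap.

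Lymphatic and comparison cells were then compared over all genes, which asks what sets these cells apart from the other endothelium of the same tendon. UMIs were summed per library and cell class and tested with edgeR's quasi-likelihood test with the library as a block, at an adjusted p under 0.05 over 9298 genes. Of these, 629 were higher (6.76% of genes tested) and 913 lower (9.82%) in lymphatic cells, with a median log2 fold change of -0.041 over all genes. By the labels, both sorts of a time point came from the same 8 mice, so the 6 pairs may not be separate sets of animals. For uninjured tendon the data go against this: Xist was found in 123 of 319 Gli1+ but 0 of 2908 Gli1- comparison cells, and Cntn5 stood at 0.533 and 889 CPM, so which pairs share mice is uncertain. With the sorts of a time point summed, giving 3 pairs, 504 genes were higher and 701 lower, among them 410 of the 629 and 602 of the 913. Of the genes called over 6 pairs, 502 were higher and 684 lower in each of the 6 libraries. By library totals alone the median rose to 0.056, and 807 genes were higher and 772 lower, so the call of modest changes and the split between directions depend on the scaling: 40.8% of calls were upward with TMM factors and 51.1% without.

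The highest of the genes with at least 50 UMIs and 1 direction in every library were Ccl21a, Reln, Apba2, Slc45a3, Dtx1, Il7, Sh3gl3, Lyve1, Pkhd1l1 and Sema3d, with log2 fold changes from 9.95 down to 5.86. Several are not among the usual lymphatic markers: Apba2, an adaptor protein of synapses, was at 97.6, 123 and 237 CPM (Gli1+) and 93.7, 77.2 and 118 CPM (Gli1-), and at 0 to 0.608 CPM in comparison cells. Dtx1, a regulator of Notch signalling, was at 12.3 to 257 CPM against 0 to 1.17 CPM (log2 fold change 7.79 ± 0.346 SE, adjusted p = 6.58e-08). Sh3gl3, an endophilin that bends membranes in endocytosis, was at 78.3 to 204 CPM against 0 to 1.07 CPM. Slc45a3, a sugar transporter of the solute carrier family, was at 70.6 to 135 CPM against 0 to 1.90 CPM (log2 fold change 7.99 ± 0.325 SE, adjusted p = 2.95e-08).

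The lowest were Hba-a1, Hbb-bs, Prnd, Esm1, AW112010, Sox17, Thrsp, Tcf15, C1qtnf9 and Aplnr, from -5.17 to -3.93. Hba-a1 and Hbb-bs are red blood cell globins. Aplnr, the apelin receptor of angiogenic endothelium, was at 0 to 17.6 CPM against 33.6 to 218 CPM (log2 fold change -3.93 ± 0.272 SE, adjusted p = 1.71e-06). Tcf15, a factor of capillary endothelium that takes up fatty acids, was at 0 to 52.6 CPM against 33.3 to 511 CPM, and Esm1, a secreted marker of endothelial tip cells, at 0 to 24.6 CPM against 33.7 to 61.8 CPM.

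**Figure D3:**
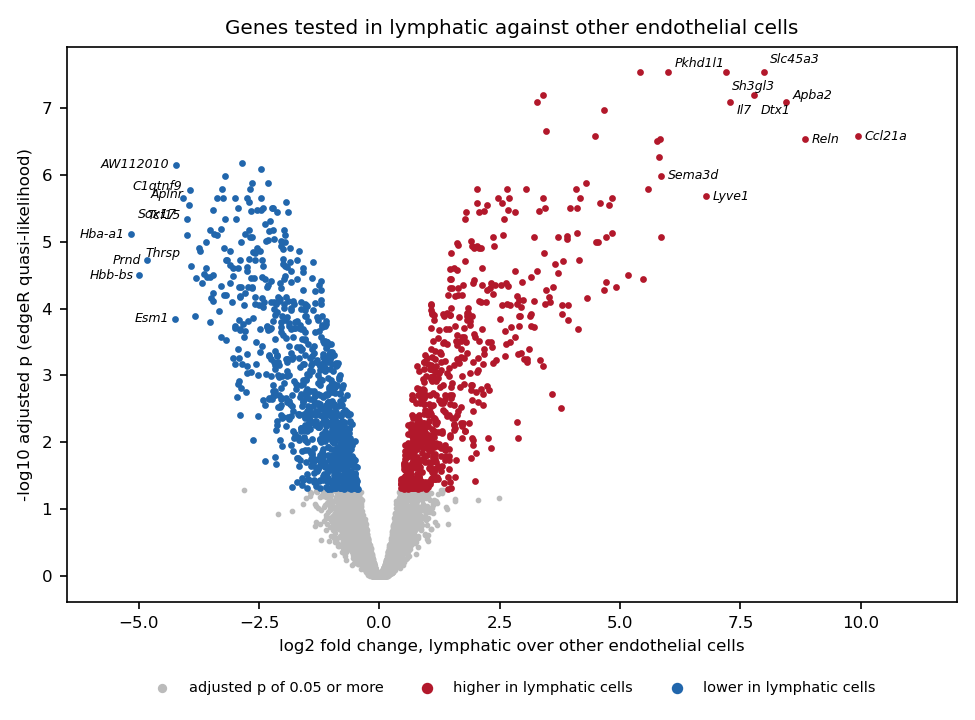
Log2 fold change of lymphatic over comparison endothelial cells (x axis) against minus log10 of the adjusted p (y axis) for the genes tested, from edgeR with the library as a block, with the 20 named genes labelled. Calls in both directions are coloured, and Ccl21a lies farthest to the right at 9.95.

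The list of chemokines and secreted signals holds Ccl21a and Reln, the genes with the highest fold changes named here (18 of 25 could be tested, 6 of these were higher and 4 lower, and their median log2 fold change was 0.63, and -0.041 over all genes, with 6.76% of all genes higher and 9.82% lower). Ccl21a, the chemokine that guides CCR7-bearing dendritic and T cells, was at 6511, 3209 and 4789 CPM (Gli1+) and 7808, 4491 and 4071 CPM (Gli1-). The comparison cells held 0, 1.90 and 0 CPM (Gli1+) and 11.5, 9.74 and 4.64 CPM (Gli1-). The groups did not overlap (log2 fold change 9.95 ± 0.540 SE, adjusted p = 2.68e-07). The near-identical copy Ccl21b (99.5% of 402 aligned transcript bases) and Ccl21d had 5 and 27 UMIs in members against 17010 of Ccl21a, and how reads of these copies were divided is uncertain.

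Reln, which encodes reelin, an extracellular guidance protein, was at 981, 197 and 1292 CPM (Gli1+) and 868, 532 and 1171 CPM (Gli1-). Comparison cells held 0 to 4.93 CPM (log2 fold change 8.85 ± 0.488 SE, adjusted p = 2.96e-07), and the lowest lymphatic value, Gli1+ cells at 7 dpi, was above every one of them. Il7, a survival factor of lymphocytes, was at 186, 12.3 and 65.5 CPM (Gli1+) and 117, 39.7 and 64.7 CPM (Gli1-) against at most 0.744 CPM (log2 fold change 7.29 ± 0.343 SE, adjusted p = 8.21e-08). Sema3d and Sema3a, secreted semaphorins, were at 123 to 512 CPM against 0.533 to 7.61 CPM and at 148 to 416 CPM against 2.66 to 63.4 CPM. Fgl2, a secreted fibrinogen-like protein, was at 307 to 1262 CPM against 3.73 to 22.8 CPM (log2 fold change 5.58 ± 0.381 SE, adjusted p = 1.64e-06). Lower in lymphatic cells were Cxcl12, the CXCR4 ligand, at 40.0 to 204 CPM against 266 to 1802 CPM, Cx3cl1 (log2 -2.94), Csf1 (-1.08) and Lgals9 (-0.74).

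Surface receptors were mostly higher (15 of 20 could be tested, 9 of these were higher and 3 lower, and their median log2 fold change was 0.78, beside 6.76% higher and 9.82% lower over all genes tested). Lyve1, the hyaluronan receptor, was at 1007, 627 and 932 CPM (Gli1+) and 988, 1310.4 and 1211 CPM (Gli1-). Its comparison values were 5.33, 1.90 and 13.5 CPM (Gli1+) and 1.86, 10.6 and 33.2 CPM (Gli1-), highest at 21 dpi, without overlap (log2 fold change 6.79 ± 0.480 SE, adjusted p = 2.11e-06). Flt4, the VEGFC receptor, was at 382, 209 and 240.2 CPM (Gli1+) and 395, 355 and 339.7 CPM (Gli1-) against 15.8 to 49.5 CPM (log2 fold change 3.47 ± 0.183 SE, adjusted p = 2.24e-07). Pdpn, podoplanin, which binds platelet CLEC-2, was at 98.4 to 338 CPM against 2.66 to 58.9 CPM, and Itga9, an integrin subunit of lymphatic valves, at 141 to 315 CPM against 35.0 to 55.0 CPM. Lyve1, Flt4, Pdpn and Itga9 were each higher than in comparison cells in all 6 libraries. For Pdpn in Gli1+ cells at 7 dpi the counting intervals overlap (42.5 to 194 against 40.0 to 83.7 CPM), and after thinning it was found in 0 of 13 members and 5 of 79 comparison cells.

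Receptors that take up chemokines, lipids or other ligands differed in direction. Ackr2, which takes up inflammatory chemokines, was at 49.2 to 118 CPM against 0 to 2.06 CPM (log2 5.80), and higher too were Mrc1, the mannose receptor, at 18.2 to 102 CPM against 0 to 7.99 CPM (4.91) and Stab1, a scavenger receptor, at 119.8 to 371 CPM against 13.3 to 53.6 CPM (2.59). Gpr182, another atypical chemokine receptor, was higher, at 21.8 to 97.6 CPM against 1.90 to 15.7 CPM. Scarb1, the receptor for high density lipoprotein, and Cd36, the fatty acid receptor, were lower, at 7.28 to 84.7 CPM against 203 to 517 CPM and 0 to 317 CPM against 213 to 2156 CPM. Tek, which encodes the angiopoietin receptor TIE2, was lower (log2 -1.34), and Nrp2, the VEGFC coreceptor, was higher by 0.54, a call lost under 9 of the 20 alternatives tried. Of the hyaluronan and scavenging genes, 8 of 12 could be tested, 4 of these were higher and 2 lower, and their median log2 fold change was 1.34, beside 6.76% higher and 9.82% lower over all genes tested.

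Factors of lymphatic identity moved in both directions (14 of 15 could be tested, 7 of these were higher and 2 lower, and their median log2 fold change was 0.55, beside 6.76% higher and 9.82% lower over all genes tested). Maf, a leucine zipper factor, was at 604, 246 and 444 CPM (Gli1+) and 534, 344 and 367 CPM (Gli1-) against 7.60 to 45.6 CPM (log2 fold change 4.50 ± 0.406 SE, adjusted p = 9.99e-06), and Tbx1, a T-box factor, at 61.5 to 215 CPM against 0.558 to 12.3 CPM (log2 fold change 5.85 ± 0.516 SE, adjusted p = 8.58e-06). Nr2f2, which induces Prox1 in veins, was at 430.2 to 719 CPM against 145 to 254 CPM (log2 1.45). Hoxd10 (log2 3.06), Nfatc1 (1.32) and Hoxd8 (0.69) were also higher. Sox18, the other inducer of Prox1, was lower (log2 -0.52), a call lost under 13 of the 20 alternatives, and Zfp36l1, which destabilises mRNA, was lower (log2 -0.64). Foxc1 did not pass the test (log2 fold change 0.41 ± 0.257 SE, adjusted p = 0.360).

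In the axis of VEGFC and its receptor, 10 of 14 could be tested, 3 of these were higher and 2 lower, and their median log2 fold change was 0.044, beside 6.76% higher and 9.82% lower over all genes tested. Besides Flt4 and Nrp2, Vegfb, a ligand of VEGFR1, was higher, at 10.9 to 61.5 CPM against 5.26 to 14.9 CPM (log2 1.55). Vegfc itself was at 31.1, 0 and 0 CPM (Gli1+) and 18.0, 8.82 and 11.1 CPM (Gli1-), below the 27.5 to 64.3 CPM of comparison cells (log2 fold change -1.94 ± 0.299 SE, adjusted p = 5.77e-04), although the lowest comparison and highest lymphatic values overlap. Ptprb, the phosphatase that dampens TIE2, was at 94.6 to 311 CPM against 405 to 1298 CPM (log2 -1.98). Kdr, which encodes VEGFR2, did not pass the test (log2 fold change -0.47 ± 0.177 SE, adjusted p = 0.0962).

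Of the genes of valves and collecting vessels, 16 of 20 could be tested, 4 of these were higher and 1 lower, and their median log2 fold change was 0.24, beside 6.76% higher and 9.82% lower over all genes tested. Foxc2 was at 62.1, 24.6 and 25.5 CPM (Gli1+) and 33.4, 52.9 and 32.7 CPM (Gli1-) against 0 to 8.88 CPM (log2 fold change 3.41 ± 0.544 SE, adjusted p = 7.25e-04), and Celsr1, a planar polarity cadherin of forming valves, was at 24.6 to 48.8 CPM against 1.12 to 7.61 CPM (log2 fold change 3.16 ± 0.396 SE, adjusted p = 1.19e-04). Fat4, an atypical cadherin that directs valve cell polarity, was lower, at 10.9 to 29.5 CPM against 34.5 to 103 CPM (log2 -1.49). Gja4 and Gja1, connexins of valves, had log2 fold changes of -0.17 and -0.38 and did not pass.

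Of junction and adhesion genes, 18 of 21 could be tested, 2 of these were higher and 6 lower, and their median log2 fold change was -0.37, beside 6.76% higher and 9.82% lower over all genes tested. Cldn5, the claudin of endothelial tight junctions, was at 1081 to 1448 CPM against 174 to 659 CPM and did not overlap (log2 fold change 1.58 ± 0.224 SE, adjusted p = 3.05e-04), and the tetraspanin Cd9 was higher (log2 0.99). Esam and Jam2, adhesion molecules at junctions of blood endothelium, were at 55.1 to 159.8 CPM against 441 to 632 CPM and at 0 to 49.2 CPM against 108 to 387 CPM, with log2 fold changes of -2.67 and -3.69. Icam2 was lower by less (log2 -0.78).

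Blood endothelial genes were lower where they changed (34 of 36 could be tested, 0 of these were higher and 23 lower, and their median log2 fold change was -2.01, beside 6.76% higher and 9.82% lower over all genes tested). Flt1, a decoy receptor for VEGFA, was at 337, 221 and 69.1 CPM (Gli1+) and 313, 77.2 and 174 CPM (Gli1-). Comparison cells held 3110.3, 1009.6 and 1309 CPM (Gli1+) and 2616, 989 and 1176 CPM (Gli1-), without overlap (log2 fold change -3.28 ± 0.224 SE, adjusted p = 1.64e-06). Of the 76 Flt1 UMIs of Gli1+ uninjured members, 37 lay in those with Prox1 alone and 39 in 1 other member. In Gli1+ members at 7 dpi, 17 of 18 lay in those with Prox1 alone. Fabp4 was at 295 to 2627 CPM against 3277 to 14418 CPM (log2 fold change -3.21 ± 0.206 SE, adjusted p = 1.05e-06). Sox17, an arterial factor, was at 0 to 36.9 CPM against 121 to 298 CPM, Cd93 at 10.9 to 111 CPM against 331 to 494 CPM and Ly6c1, a capillary surface antigen, at 26.6 to 319.6 CPM against 745 to 2448 CPM. Vwf (log2 -2.03) and Aqp1, a water channel (-2.70), were lower with overlapping ranges. Emcn and Plvap, other blood vessel markers, did not pass (-0.67 with adjusted p = 0.166, and -0.81 with 0.150). Of the genes shared by all endothelium, 24 of 24 could be tested, 3 of these were higher and 12 lower, and their median log2 fold change was -0.51, beside 6.76% higher and 9.82% lower over all genes tested, with Cldn5, Calcrl and Tal1 higher and Tek, Robo4, Clec14a, Eng and others lower. Comparison cells had to hold both Cdh5 and Pecam1, and members only 1 of them. The part of this in the shared and junction gene counts was not tested. With both genes required of members, 550 of the 629 higher and 762 of the 913 lower calls over all genes remained.

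**Figure D4:**
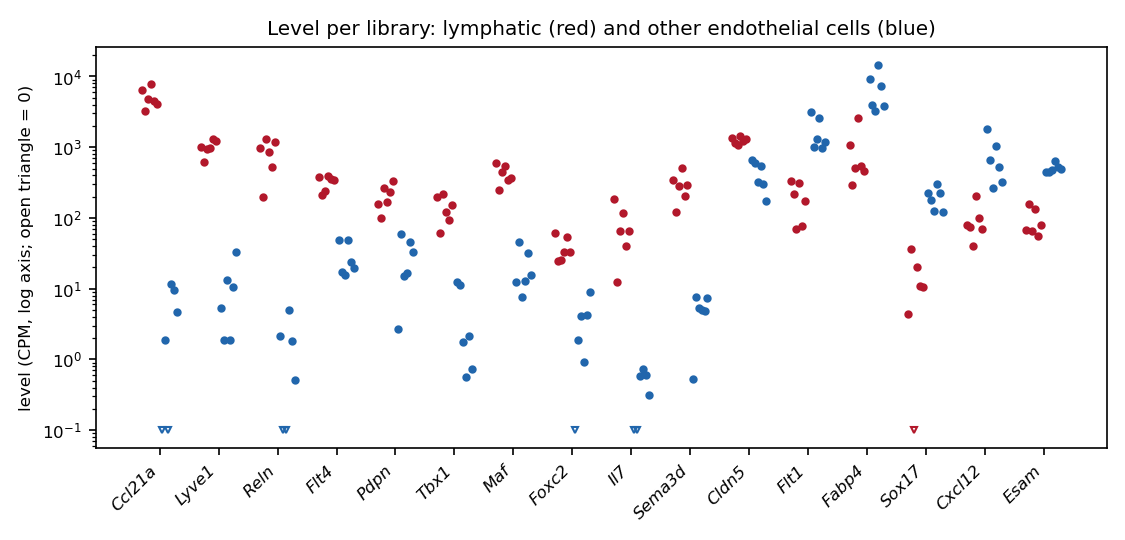
CPM (log axis) of 16 genes in lymphatic (red) and comparison (blue) cells, with a point for each of the 6 libraries in the order of the text and an open triangle for 0. Ccl21a, Reln and Il7 lie far above the comparison points and Flt1, Fabp4 and Esam below them.

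Antigen presentation and inflammatory genes were lower where they changed (19 of 24 could be tested, 0 of these were higher and 16 lower, and their median log2 fold change was -1.22, and -0.041 over all genes, with 6.76% of all genes higher and 9.82% lower). B2m, the light chain of class I molecules, was at 590.3, 516 and 211 CPM (Gli1+) and 419, 450.0 and 313 CPM (Gli1-) against 491 to 1339 CPM (log2 fold change -1.22 ± 0.143 SE, adjusted p = 7.44e-05). H2-K1 (log2 -0.97), Psmb8 of the immunoproteasome (-1.55), Irf7, a factor of the interferon response (-2.19), Cd274, which encodes PD-L1 (-2.54), and the interferon-induced chemokine Cxcl9 (-3.65) were all lower. Class II genes and Cd74 were too low to be tested in these cells.

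Basement membrane genes split (22 of 23 could be tested, 5 of these were higher and 6 lower, and their median log2 fold change was 0.10, beside 6.76% higher and 9.82% lower over all genes tested). Col4a1 (log2 -1.11), Col4a2 (-1.16), Lama5 (-1.57), Hspg2, which encodes perlecan (-1.24), and Sparc (-1.29) were lower, while Lama4 (0.58), Fbln5 (0.68), Ccn1 (0.70) and the metalloprotease inhibitors Timp2 (1.37) and Timp3 (0.72) were higher. Timp2 was at 529 to 863 CPM against 82.0 to 384 CPM. No call was made by edgeR among 14 tested cell cycle genes (0 at an unadjusted p under 0.05 and 0 called by DESeq2, median log2 fold change 0.019, which DESeq2 size factors turned to -0.12), and of 16 early response genes Ier2, Ier3 and Hspa1a were lower and none was higher.

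Genes of other cell types were present in both classes. Summed over 10 genes, fibroblast UMIs were 533, 12429 and 3770.1 CPM (Gli1+) and 1842, 9742 and 6498 CPM (Gli1-), and in comparison cells 678, 13553 and 5118 CPM (Gli1+) and 1728, 12097 and 7345 CPM (Gli1-), with 0 of the 10 higher and Pdgfrb and Thbs4 lower in lymphatic cells, beside 6.76% higher and 9.82% lower over all genes tested. Red blood genes summed to 0 to 193 CPM in members and 11.4 to 6807 CPM in comparison cells. Epidermal genes reached 5618 CPM in Gli1+ cells at 7 dpi and 3770.1 CPM at 21 dpi (5362 and 568 CPM in comparison cells), and at most 43.2 CPM in the other members. Skeletal muscle genes were at 1642 CPM in Gli1+ uninjured members, with 5 of 28 holding at least 2 UMIs, and macrophage genes at 2.09 to 31.1 CPM. Platelet genes summed to 0 to 148 CPM, mural genes to 234 to 1991 CPM, T cell genes to 1.28 to 22.2 CPM and Schwann cell genes to 106 to 246 CPM. No doublet caller was run beyond the Ptprc and Pdgfra limits. The part of these RNAs in the differences above was not tested.

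Lymphatic cells of injured tendon were set against those of uninjured tendon within each sort. With 1 library per condition no test was made, and a gene was counted when its CPM differed at least 2-fold in the same direction in both sorts, among genes with at least 20 UMIs over the libraries compared in each sort. At 7 dpi, of 3071 such genes, 125 were higher (4.07%) and 185 lower (6.02%). At 21 dpi, of 4644, 102 were higher (2.2%) and 80 lower (1.72%). Scaled by TMM factors of the lymphatic sums, the counts were 99 higher and 231 lower at 7 dpi and 110 and 77 at 21 dpi. Over members with an Mmrn1 UMI the 7 dpi counts were 64 and 117 of 1910 genes. In the comparison endothelial cells 69 of the 125, 51 of the 185, 67 of the 102 and 39 of the 80 went past 2-fold the same way in both sorts, 55.2%, 27.6%, 65.7% and 48.8%. The share of all counted genes that did so in comparison cells was not taken, so these percentages have no background beside them. Median log2 ratios over all counted genes were -0.25 and -0.037 at 7 dpi and 0.036 and 0.10 at 21 dpi, Gli1+ then Gli1-. The uninjured library of each sort is the baseline of both time points, so their ratios share it.

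The genes furthest above uninjured tendon were largely matrix genes of fibroblasts, in lymphatic and comparison cells alike. At 7 dpi the 8 named by rank were Tnc, Postn, Col1a1, Stmn1, Ube2c, Col3a1, Col1a2 and Lum. Col1a1, the main chain of tendon collagen, went from 93.2 to 4020.1 CPM in Gli1+ and from 151 to 3159 CPM in Gli1- members, log2 ratios of 5.43 (4.79 to 6.14) and 4.38 (4.11 to 4.67), with 95% counting intervals in parentheses. The comparison cells gave 6.05 and 4.52. Tnc, tenascin C of wounds, gave 5.33 (3.34 to 8.44) and 5.90 (4.76 to 7.37), and 5.02 and 6.04 in comparison cells. Of the fibroblast list, 6 of 8 at 7 dpi and 5 of 8 at 21 dpi were past 2-fold higher, against 4.07% and 2.2% of all genes counted.

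Stmn1, which destabilises microtubules in dividing cells, went from 17.8 to 344 CPM in Gli1+ and from 20.5 to 395 CPM in Gli1- members at 7 dpi, log2 ratios of 4.28 (2.76 to 6.25) and 4.26 (3.53 to 5.10), against 2.35 and 1.65 in comparison cells. At 21 dpi they were 2.41 (0.89 to 4.39) and 1.76 (0.99 to 2.62). Ube2c, a ubiquitin enzyme of mitosis, was at 0 in Gli1+ uninjured members and 246 CPM at 7 dpi, at least 18.5-fold higher with 3 UMIs taken as the floor of the uninjured library, and went from 1.28 to 135 CPM in Gli1- members. Over members with an Mmrn1 UMI the Gli1+ value with the same floor was 1.20 on the log2 scale, from 8 cells at 7 dpi and 18 of uninjured tendon.

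Cells with at least 2 UMIs over 10 cell cycle genes numbered 0 of 28, 5 of 13 and 5 of 31 Gli1+ members and 1 of 131, 20 of 57 and 10 of 239 Gli1- members. These are 38.5% (13.9 to 68.4%) and 35.1% (22.9 to 48.9%) at 7 dpi, against 0 (exact upper bound 12.3%) and 0.763% (0.0193 to 4.18%) in uninjured tendon, and 16.1% and 4.18% at 21 dpi. Thinned to 2000 UMIs per cell, 2 of 13 and 12 of 54 members had 2 such UMIs at 7 dpi, 15.4% (1.92 to 45.4%) and 22.2% (12 to 35.6%) of Gli1+ and Gli1- members, against 0 of 27 (exact upper bound 12.8%) and 1 of 122 in uninjured tendon, 0.820% (0.0208 to 4.48%) of the latter. Thus in the Gli1+ sort the thinned intervals overlap, and in the Gli1- sort they do not. Comparison cells thinned in the same way gave 6.33% and 5.27% at 7 dpi. The 13 Gli1+ members at 7 dpi included 5 with Prox1 alone. Cell cycle shares were not taken over members with an Mmrn1 UMI. At 21 dpi the thinned shares were 3.23% (0.0816 to 16.7%) of Gli1+ and 1.73% (0.474 to 4.37%) of Gli1- members. Comparison cells gave 4.95% (2.40 to 8.92%) and 4.96% (3.74 to 6.44%), so the intervals overlap in both sorts. Unthinned, members stood above comparison cells in the Gli1+ sort (16.1% against 10.1%) and below them in the Gli1- sort (4.18% against 8.30%).

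The proliferation gene Mki67 was found in 14.8% (6.62 to 27.1%) of thinned Gli1- members at 7 dpi, in 3.91% of comparison cells and in 2.20% of mesenchymal cells. Unthinned, these shares were 24.6%, 6.69% and 13.2%, at median depths of 6326, 2989 and 11907 UMIs. In the Gli1+ sort at 7 dpi only 1 of 13 members held Mki67, 7.69% (0.195 to 36.0%), against 5.06% of comparison and 5.80% of mesenchymal cells when thinned and 16.1% and 18.9% unthinned. The level there, on 2 UMIs, was 24.6 CPM in members and 39.9 CPM in comparison cells, while in Gli1- cells these were 141 and 51.1 CPM.

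The 8 genes furthest below uninjured tendon at 7 dpi were Gm56730, 9530026P05Rik, Sult1a1, Ccdc3, Gm14964, Pkhd1l1, Gm26802 and Rgs5. Ccdc3, a secreted protein of endothelium, went from 102 to 12.3 CPM and from 209 to 37.5 CPM, log2 ratios of -3.05 (-8.42 to -0.43) and -2.48 (-3.29 to -1.76), against -1.16 and -0.67 in comparison cells. In Gli1+ members at 7 dpi the floor of 3 UMIs is 36.9 CPM, so this 12.3 CPM lies below it. The floor was applied only to levels of 0. Over members with an Mmrn1 UMI the ratios were -0.72 and -2.40. Pkhd1l1, one of the genes highest in lymphatic cells, went from 209 to 36.9 CPM and from 221 to 41.9 CPM. Rgs5, a pericyte gene, gave -4.14 (-9.48 to -1.60) and -2.22 (-2.85 to -1.64), and the Gli1+ value turned to 1.33 without cells above 20000 UMIs and to 0.20 over members with an Mmrn1 UMI.

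A further 4 genes were picked after their values were seen, as lower in members of both sorts at 7 dpi but less so or not in comparison cells. Igfbp5, a secreted binder of insulin-like growth factors, went from 1553 to 381 CPM and from 1076 to 296 CPM, log2 ratios -2.03 (-2.61 to -1.50) and -1.86 (-2.14 to -1.60), while comparison cells gave 1.37 and 0.37. Over members with an Mmrn1 UMI these ratios were -3.81 (-5.13 to -2.75) and -1.93 (-2.21 to -1.67). Foxp2, a forkhead factor, gave -3.82 (-6.89 to -1.91) and -2.13 (-2.55 to -1.74) in members and 0.84 and 1.62 in comparison cells. Cp, ceruloplasmin, gave -2.89 (-3.78 to -2.12) and -2.19 (-2.48 to -1.91) against -0.53 and -0.92. Lcn2, lipocalin 2, gave -1.91 (-3.59 to -0.59) and -2.22 (-2.52 to -1.93) against 0.47 and 1.08. At 21 dpi the ratios in members were -2.53 (-2.91 to -2.16) and -0.88 (-1.02 to -0.74) for Igfbp5, -0.79 (-1.32 to -0.27) and -1.69 (-1.92 to -1.47) for Foxp2 and -1.17 (-1.46 to -0.88) and -1.24 (-1.38 to -1.09) for Cp. Lcn2 differed by sort at 21 dpi, from 231 to 629.6 CPM in Gli1+ and from 1108 to 396 CPM in Gli1- members.

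Ccl21a was below uninjured tendon at both time points in both sorts, with log2 ratios of -1.02 (-1.22 to -0.83) and -0.80 (-0.87 to -0.73) at 7 dpi and -0.44 (-0.55 to -0.33) and -0.94 (-0.99 to -0.89) at 21 dpi. Reln gave -2.32 (-3.15 to -1.59) and -0.71 (-0.93 to -0.49) at 7 dpi but 0.40 (0.15 to 0.65) and 0.43 (0.30 to 0.56) at 21 dpi. Over members with an Mmrn1 UMI, Reln in Gli1+ cells was at -0.13 (-0.38 to 0.12) at 21 dpi, from 1468 to 1337 CPM, so that its direction in this sort rests on the members with Prox1 alone, while the Gli1- value was 0.38 (0.25 to 0.52). Ccl21a at 21 dpi gave -1.07 (-1.18 to -0.96) over the same members of the Gli1+ sort and -0.997 (-1.05 to -0.95) of the Gli1- sort. Il7 gave -3.92 (-9.26 to -1.37) and -1.56 (-2.37 to -0.82), and Sema3d -1.49 (-2.61 to -0.54) and -1.30 (-1.64 to -0.98) at 7 dpi. The Il7 ratio of Gli1+ cells rests on 1 UMI at 7 dpi. Lyve1 differed by sort, at -0.68 (-1.15 to -0.24) and 0.41 (0.25 to 0.56). By list, past 2-fold at 7 dpi were 0 higher and 2 lower of 10 identity factors and 0 higher and 3 lower of 11 chemokine and secreted genes, and 6 higher and 1 lower of 19 matrix genes, beside 4.07% higher and 6.02% lower over all genes counted. At 21 dpi, none of 14 chemokine and secreted genes and 0 higher and 1 lower of 13 identity factors were past it, beside 2.2% higher and 1.72% lower over all genes.

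At 21 dpi the genes furthest above uninjured tendon were Tnc, Col1a1, Lum, Postn, Mmp3, Ltc4s, Col1a2 and Col3a1, and those furthest below Fmo2, Cytl1, Cyp4b1, Pid1, Tmcc3, Cd36, Bmx and Gm14964. Ltc4s, the enzyme that makes leukotriene C4, gave 2.83 (1.12 to 5.20) and 3.59 (2.19 to 5.50) against 1.61 and 3.49 in comparison cells. Fmo2, a flavin monooxygenase, gave -4.53 (-9.91 to -1.88) and -5.22 (-6.20 to -4.39) against -2.31 and -2.96. Cd36 went from 93.2 to 0 CPM and from 317 to 64.7 CPM in members, and from 2088 to 228 CPM and from 2156 to 369 CPM in comparison cells. Of 11 antigen presentation and inflammatory genes counted at 21 dpi, 0 were past 2-fold higher and 3 lower, beside the 2.2% and 1.72% of all genes. Xist and Y-linked UMIs differ between 21 dpi and uninjured tendon in both sorts, and Xist went from 342 to 1190.0 CPM in Gli1+ members.

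**Figure D5:**
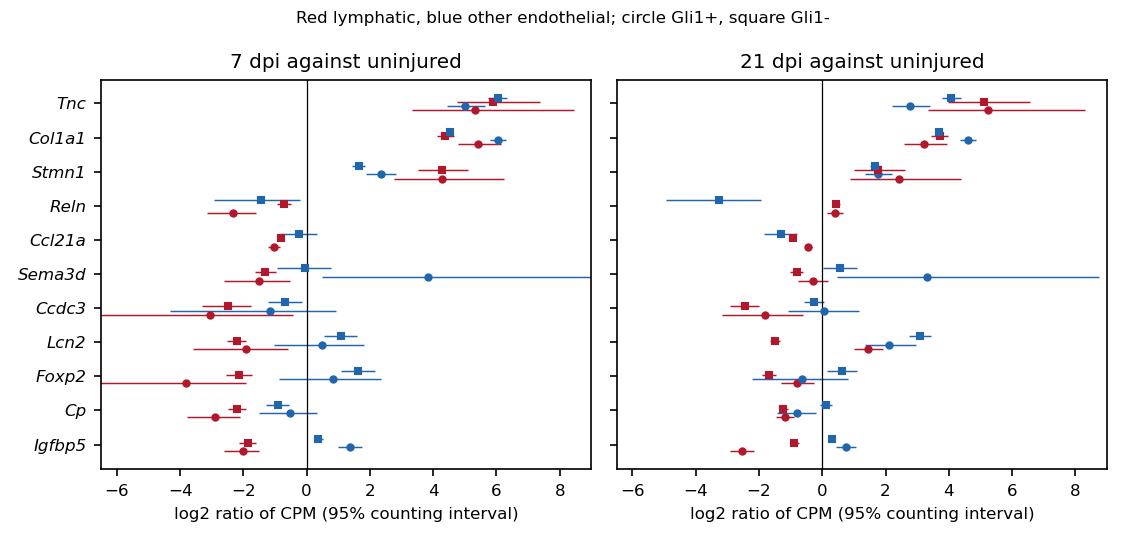
Log2 ratio of CPM in injured over uninjured tendon (x axis) for 11 genes at 7 dpi (left) and 21 dpi (right), in lymphatic (red) and comparison (blue) cells of the Gli1+ (circles) and Gli1- (squares) sorts, with 95% counting intervals, some of which run off the axis. A missing point has 0 UMIs before or after. The red points of Igfbp5, Cp and Ccdc3 lie below 0 and Stmn1, Col1a1 and Tnc above 0 in both sorts at 7 dpi.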

How the data were processed

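Single cell RNA-seq libraries were made from sorted Achilles tendon cells with Chromium 3' v3 reagents. The deposited values are counts, raw UMI counts of 33696 genes per barcode, made by the authors with Cell Ranger without normalization. The submitters' processing notes name Cell Ranger 3.1.0, STAR and mm10, whereas the matrix headers name cellranger 9.0.0, and the annotation release is not given in the sources used here. Of the gene IDs, 94.9% are in GENCODE M21.

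UMIs were summed per library and cell class, and 6 libraries, each with at least 10 lymphatic and 10 comparison cells, entered edgeR 4.0.16 (R 4.3.3; TMM factors, filterByExpr, glmQLFTest, library as a block, Benjamini-Hochberg adjustment over all genes tested). The 6 genes of the selection rule were left out. Tested on simulated data for this comparison, with 9003 genes, the fit recovered 33 of 97 genes changed by a log2 of 1 (34.0%) and 91 of 95 changed by a log2 of 2 (95.8%), with 5 false calls. The simulation used a single fixed dispersion, changed only genes above a minimum mean count and drew the pairs as independent. It therefore does not give the recovery of low-count genes or the effect of pairs that share mice. Shares carry exact binomial 95% intervals, and ratios between libraries binomial counting intervals. All intervals cover counting error only. A level of 0 takes a floor of 3 UMIs per library. The 499 members held 81342 to 1436575 UMIs per library.

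Named were genes of the lists that a list turns on, the 10 highest and 10 lowest genes past the threshold with at least 50 UMIs in the class where they are higher and 1 direction in every library, and for each time point the 8 highest and 8 lowest by the smaller absolute log2 ratio of both sorts. Exceptions are named in the text. The members and lists were chosen with earlier results of these data known. No doublet caller was run, and cells above 20000 UMIs were left out as an alternative. Other alternatives were DESeq2 1.42.0, library totals, no filter on low counts, leaving out each library, both sorts of a time point summed, stricter or looser cell filters, and thinning to 2000 UMIs. Python 3.11.15, numpy 2.4.6, scipy 1.17.1, pandas 2.3.3 and matplotlib 3.10.9 were used. DESeq2 adjusted p-values given as NA were kept as NA.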

Additional observations from a re-analysis of the deposited data

Results flagged for a closer look

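Results were looked at again where lymphatic cells of both sorts stood on one side of the comparison cells at 1 time point and on the opposite side at another. Of 235 list genes tested, 36 did so among those with UMIs in every library concerned, and 11 with a log2 ratio of lymphatic over comparison CPM of at least 0.5 either way in each of the 4 libraries, a minimum chosen after the values were seen. A gene could enter on 1 UMI in a library. The share of all genes that turned was not counted, so none stands beside these numbers. The log2 ratios are given for Gli1+ and Gli1- cells at the earlier and then at the later time point, with the log2 fold change of the fit over all 6 libraries as the overall value. Between uninjured tendon and 21 dpi, Icam1, a leukocyte adhesion molecule, stood at 1.15 and 1.30, then -1.78 and -0.67 (overall 0.0072), and Vcam1, another one, at 2.36 and 0.62, then -1.45 and -1.14 (overall -0.54). Lrg1, a secreted glycoprotein of vessels, stood at 2.84 and 2.40, then -0.51 and -0.52 (overall 0.56), and Nid2, a basement membrane nidogen, at 1.10 and 1.31, then -0.85 and -0.78 (overall 0.020). Between 7 and 21 dpi the cell cycle gene Ube2c stood at 3.69 and 1.27, then -2.72 and -1.75 (overall 0.26). Birc5 stood at 2.31 and 1.28, then -2.03 and -0.97 (overall 0.084), Ccnb2 at 1.69 and 1.51, then -1.06 and -0.63 (overall 0.063) and Cdca8 at 0.61 and 1.09, then -1.49 and -0.50 (overall -0.024), each higher in lymphatic cells at 7 dpi and lower at 21 dpi. The 10 cell cycle genes counted above, Ube2c, Birc5 and Ccnb2 among them, summed to 76.4 CPM of 274797 UMIs in Gli1+ members at 21 dpi. The Gli1+ ratios of these genes at 21 dpi thus rest on few UMIs and carry no intervals. Those at 7 dpi include the 5 of 13 Gli1+ members with Prox1 alone. Over 7 and 21 dpi further genes turned the other way. Over the same times the smooth muscle actin Acta2 stood at -2.21 and -1.39, then 2.69 and 0.75 (overall 0.21) and the heat shock gene Hspa1b at -1.95 and -1.31, then 0.73 and 1.47 (overall 0.099). Tagln, a smooth muscle gene, stood at 0.71 and 0.61, then -2.17 and -2.18 (overall -0.37) between uninjured tendon and 7 dpi. Summed mural genes stood at 692 and 1775 CPM in uninjured members (Gli1+, Gli1-). They stood at 234 and 424 CPM at 7 dpi and at 1991 and 669 CPM at 21 dpi. Comparison cells held 2354 and 2955, 1732 and 1462, and 670 and 764 CPM. At 21 dpi 4 of 31 Gli1+ and 61 of 239 Gli1- members held at least 2 mural UMIs. The part of mural RNA in the Acta2 and Tagln ratios was not tested. None of these 11 genes passed the test over all 6 libraries.

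Hspa1a, a further heat shock gene, had a log2 fold change of -1.53 over all 6 libraries, at 217, 36.9 and 178 CPM (Gli1+) and 119, 66.2 and 183 CPM (Gli1-) against 502, 434 and 174 CPM (Gli1+) and 598, 533 and 178 CPM (Gli1-) in comparison cells. It was lower in lymphatic cells in the uninjured and 7 dpi libraries of both sorts and slightly higher in both 21 dpi libraries. Foxc1, a forkhead factor, and Kdr, which encodes VEGFR2, had log2 fold changes of 0.41 and -0.47 and turned at 21 dpi by at most 0.107 on the log2 scale. Hspa1a passed the test over all 6 libraries and the other two did not. None of these differences between time points was tested.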

How the results depend on the processing

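Of 128 genes checked under 20 settings, 124 of them past the threshold in the reported fit, 52 lost their call in at least 1 setting and 0 turned direction. Leaving out 1 library at a time gave 532 to 688 higher and 638 to 922 lower genes. With the sorts of a time point summed, giving 3 pairs, 504 genes were higher and 701 lower, 410 and 602 of them shared with the reported calls, and 30 of the 128 genes lost their call. With the Gli1+ libraries alone, 152 genes were higher and 218 lower, of 6283 tested, and with the Gli1- libraries alone 506 and 702, of 11359 tested. Without a filter on low counts 914 were higher and 1535 lower, of 23580 tested. Library totals without TMM factors gave 807 higher and 772 lower, 51.1% of calls upward against 40.8%. Of the shares, Gli1+ uninjured tendon fell to 5.11% over members with an Mmrn1 UMI, Gli1- uninjured tendon to 3.11% with Cdh5 and Pecam1 both required, and Gli1- cells at 21 dpi stood at 17.3% after thinning and 11.3% with both genes required. With at least 50 UMIs, the counts past 2-fold were 40 higher and 85 lower of 1121 genes at 7 dpi and 49 and 23 of 2016 at 21 dpi. With only members holding an Mmrn1 UMI they were 64 and 117 of 1910 at 7 dpi. Rgs5 in Gli1+ cells at 7 dpi reversed, to 1.33 without cells above 20000 UMIs and to 0.20 over members with an Mmrn1 UMI. The cause was not tested. The settings with members holding an Mmrn1 UMI, and each sort alone, were chosen after seeing the data, as were the thinned cell cycle counts and the marker patterns within libraries. The library paired lymphatic with comparison cells in the fits, and no test between conditions was made. Members with an Mmrn1 UMI turned Reln in Gli1+ cells at 21 dpi to -0.13 from 0.40. The 13 members of Gli1+ tendon at 7 dpi held 81342 UMIs, the smallest sum of the 6 libraries.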
